A study of Mus musculus with 12 samples.

Results

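The genes described here are 10 immediate early response genes of the mouse cerebellum: Fos, Jun, Junb, Jund, Egr1, Nr4a1, Nr4a2, Nr4a3, Dusp1 and Ier2. They were chosen by name, and all 10 were found among the 7667 named genes of the deposited table of expression scores. The study compared fxSCA7 92Q mice, a model of the polyglutamine disease spinocerebellar ataxia type 7 with an ataxin-7 repeat of 92 CAG, with their wild-type littermates. Animals were 12 or 29 weeks old, which gives the groups 92Q at 12 weeks, wild type at 12 weeks, 92Q at 29 weeks and wild type at 29 weeks. RNA of each group went into 3 libraries, each from the pooled cerebella of 3 mice, but the deposited table holds 1 value per gene and group. The labels give neither the sex of the animals nor the hour at which tissue was taken. As background, the fxSCA7 line is known to carry its transgene in a bacterial artificial chromosome under a prion protein promoter, which is active in many cell types, so the model is not limited to 1 kind of neuron.

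Immediate early genes are transcribed within minutes of a stimulus, without new protein synthesis, by transcription factors such as CREB, SRF and the ternary complex factors that already sit at their promoters. MAP kinase and calcium signalling activates these factors when a neuron is driven. FOS and JUN family proteins pair to form the AP-1 transcription factor, EGR1 is a zinc finger factor, the NR4A proteins are orphan nuclear receptors whose activity follows their abundance, and DUSP1 is a phosphatase that switches MAP kinases off again. Their messages are short-lived, so a level measured in tissue reflects the hours or minutes before collection as well as the long-term state of the cells.

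CREB binds the palindrome TGACGTCA and its core TGACG, and the promoters of several of these genes are known for such sites. The sequences below show the bases just upstream of the start sites of 4 of the 5 genes with the largest genotype difference at 29 weeks, Fos, Nr4a1, Nr4a2 and Dusp1, with Jun as a gene that ran the other way. Nr4a3, the other one of the 5, is not printed because most of its window lies inside the annotated gene. Of the 10 genes, 8 had a promoter in the RefSeq table (GRCm38.p6). Each sequence is printed 5′ to 3′ on the strand of its gene, and capitals mark TGACG on either strand, read as CGTCA on the other strand, or, in Jun, TGACATCA, a variant AP-1 and ATF site. The windows are chr12:85473640-85473889 on the plus strand for Fos, chr15:101266596-101266845 on the plus strand for Nr4a1 and chr2:57124004-57124253 on the minus strand for Nr4a2. They are chr17:26508520-26508722 on the minus strand for Dusp1 and chr4:95052223-95052472 on the minus strand for Jun. The Nr4a1 window lies inside the annotated gene, before a start site downstream of the first.
Fos: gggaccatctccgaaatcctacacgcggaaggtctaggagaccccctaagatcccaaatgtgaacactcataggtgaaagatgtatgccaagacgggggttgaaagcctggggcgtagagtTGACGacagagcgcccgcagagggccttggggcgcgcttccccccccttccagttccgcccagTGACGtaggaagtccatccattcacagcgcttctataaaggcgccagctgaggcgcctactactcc
Nr4a1: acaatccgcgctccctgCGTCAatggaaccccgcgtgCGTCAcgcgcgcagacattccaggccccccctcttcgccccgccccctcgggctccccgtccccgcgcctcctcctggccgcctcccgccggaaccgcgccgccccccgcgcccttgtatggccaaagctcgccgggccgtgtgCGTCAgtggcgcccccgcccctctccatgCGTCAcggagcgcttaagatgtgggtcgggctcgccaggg
Nr4a2: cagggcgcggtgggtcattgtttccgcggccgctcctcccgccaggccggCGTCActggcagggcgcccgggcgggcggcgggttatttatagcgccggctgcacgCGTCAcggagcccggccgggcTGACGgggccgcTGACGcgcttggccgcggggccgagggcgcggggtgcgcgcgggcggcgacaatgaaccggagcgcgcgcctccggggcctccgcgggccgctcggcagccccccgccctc
Dusp1: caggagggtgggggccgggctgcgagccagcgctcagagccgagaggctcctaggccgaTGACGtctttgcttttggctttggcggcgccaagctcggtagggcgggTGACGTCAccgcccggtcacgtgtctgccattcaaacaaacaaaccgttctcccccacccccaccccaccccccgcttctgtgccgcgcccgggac
Jun: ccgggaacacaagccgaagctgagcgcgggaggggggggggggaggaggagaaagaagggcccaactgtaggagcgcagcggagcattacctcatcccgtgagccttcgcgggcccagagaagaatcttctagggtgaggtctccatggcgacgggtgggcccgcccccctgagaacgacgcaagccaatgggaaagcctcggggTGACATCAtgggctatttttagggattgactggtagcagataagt
In the full 250 bases upstream of the start, TGACG was found 2 times in Fos, 4 times in each of Nr4a1, Nr4a2 and Nr4a3, and 3 times in Dusp1. Junb had 1 and Jun and Jund had 0. Of all 32851 promoters in the table, 17.8% held the motif on either strand at least once and 3.90% held it at least 2 times. Of the 7781 promoters of genes in the expression table, the set these genes come from, the shares were higher, 27.2% and 7.25%. The full palindrome, which counts once on each strand as TGACG, was found in Dusp1 alone among the 8 genes, in 1.55% of all promoters and in 2.84% of those of genes in the expression table. TGACATCA was found in Jun alone among the 8, in 2.93% of all promoters and in 1.5% of those of genes in the expression table. These matches describe letters in a window of DNA, and the choice of genes to show followed their expression.

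Each value is a whole-number normalized score of no stated unit, and the 4 groups had the same median score of 22 with column sums between 323700 and 334894. The libraries were combined before deposit, so the differences below have no replicate check, no test is given, and higher and lower describe these 4 values alone. Ratios are log2 ratios of score + 1, and a rounding range is the span a ratio could have if each score were off by 0.5. The depth behind the scores is unknown. Granule neuron and Purkinje cell markers that define the cerebellum were present in each group, with Gabra6 between 337 and 417 and Pcp2 between 871 and 1661. Atxn7 was not analysed here and gives no check of the genotype labels. The library numbers in the sample titles fall in separate ranges at the 2 ages, so age and library number cannot be told apart.

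The highest score of most of these genes was that of 29-week wild type. Fos, the partner that gives AP-1 its high affinity for DNA, lies on chromosome 12 (85473890-85477274, plus strand). It was 8 in 92Q and 13 in wild type at 12 weeks, and 10 in 92Q and 27 in wild type at 29 weeks. Both 92Q scores were thus below both wild-type scores, and 29-week wild type was far above the other 3. The log2 ratio of 92Q over wild type was -1.35 at 29 weeks (rounding range -1.44 to -1.26, a score 2.55-fold lower in 92Q) and -0.64 at 12 weeks (-0.77 to -0.51). In bulk tissue, fewer cells that express a gene and less of its RNA per cell cannot be told apart. Fos had the most negative genotype ratio of the 10 genes at both ages.

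In the JUN family, the other side of AP-1, Jun and Jund did not follow Fos, and Junb was lower in 92Q by small amounts. Jun, the main transcriptional partner of FOS (chromosome 4, 95049036-95052222, minus strand), was 26 in 92Q and 23 in wild type at 12 weeks, and 28 in 92Q and 22 in wild type at 29 weeks. It was slightly higher in 92Q at both ages, with log2 ratios of 0.17 and 0.33, and its scores differed little among the groups. The score farthest from the other 3 was that of 29-week 92Q, the single case among the 10 genes. Jund, a family member known for high basal expression (chromosome 8, 70697739-70700616, plus strand), was 82 in 92Q and 79 in wild type at 12 weeks, and 87 in 92Q and 73 in wild type at 29 weeks. Its score farthest from the rest was again 29-week wild type, but as the lowest and not the highest of the 4. The ratio was 0.25 at 29 weeks (rounding range 0.23 to 0.27) and 0.05 at 12 weeks. Junb, which can act as a weaker or opposing partner to JUN (chromosome 8, 84976909-84978748, minus strand), was 7 in 92Q and 8 in wild type at 12 weeks, and 9 in 92Q and 11 in wild type at 29 weeks. Its ratios of -0.17 at 12 weeks and -0.26 at 29 weeks were small, and both genotypes were higher at 29 weeks. The Junb score farthest from the other 3 was that of 29-week wild type, as the highest, without standing apart. It was the only Junb score to reach 10. Jun shares 232 exonic bases with the antisense gene Junos and Jund shares 877 with Gm11175 on the other strand. No source used here says whether reads were counted by strand, so reads of each pair cannot be told apart.

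Egr1, the zinc finger factor best known as a marker of recent neuronal activity (chromosome 18, 34861207-34864956, plus strand), was 21 in 92Q and 21 in wild type at 12 weeks, and 19 in 92Q and 25 in wild type at 29 weeks. The genotypes had the same score at the earlier age and a log2 ratio of -0.38 at the later one (rounding range -0.44 to -0.31). Again 29-week wild type was the highest and stood apart from the rest.

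The 3 NR4A receptors had nearly the same profile as each other. Nr4a1, also known as Nur77 (chromosome 15, 101253902-101274795, plus strand), was 12 in 92Q and 15 in wild type at 12 weeks, and 11 in 92Q and 24 in wild type at 29 weeks. Nr4a2, also known as Nurr1 and needed for midbrain dopamine neurons (chromosome 2, 57106830-57124003, minus strand), was 8 in 92Q and 11 in wild type at 12 weeks, and 8 in 92Q and 18 in wild type at 29 weeks. Nr4a3, also known as NOR-1 (chromosome 4, 48045078-48086447, plus strand), was 5 in 92Q and 7 in wild type at 12 weeks, and 5 in 92Q and 12 in wild type at 29 weeks. In each of the 3 genes the 92Q scores of both ages lay below both wild-type scores, and 92Q hardly differed between ages. The log2 ratios of 92Q over wild type at 29 weeks were -1.06 for Nr4a1, -1.08 for Nr4a2 and -1.12 for Nr4a3. At 12 weeks they were -0.30, -0.42 and -0.42 in the same order of genes.

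Dusp1, the phosphatase that removes the activating phosphates of p38, JNK and ERK (chromosome 17, 26505591-26508472, minus strand), was 24 in 92Q and 26 in wild type at 12 weeks, and 22 in 92Q and 42 in wild type at 29 weeks. Of the 10 genes it had the widest gap between 29-week wild type and the next score, 74.4% of its whole range on the log2 scale. Its ratio was -0.90 at 29 weeks (rounding range -0.95 to -0.85) and -0.11 at 12 weeks (-0.17 to -0.06). Ier2, a small nuclear protein of the early response (chromosome 8, 84661331-84662852, minus strand), was 11 in 92Q and 12 in wild type at 12 weeks, and 10 in 92Q and 14 in wild type at 29 weeks. Its 29-week wild-type score was the highest without standing apart, and its ratio was -0.45 at 29 weeks and -0.12 at 12 weeks.

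**Figure D1:**
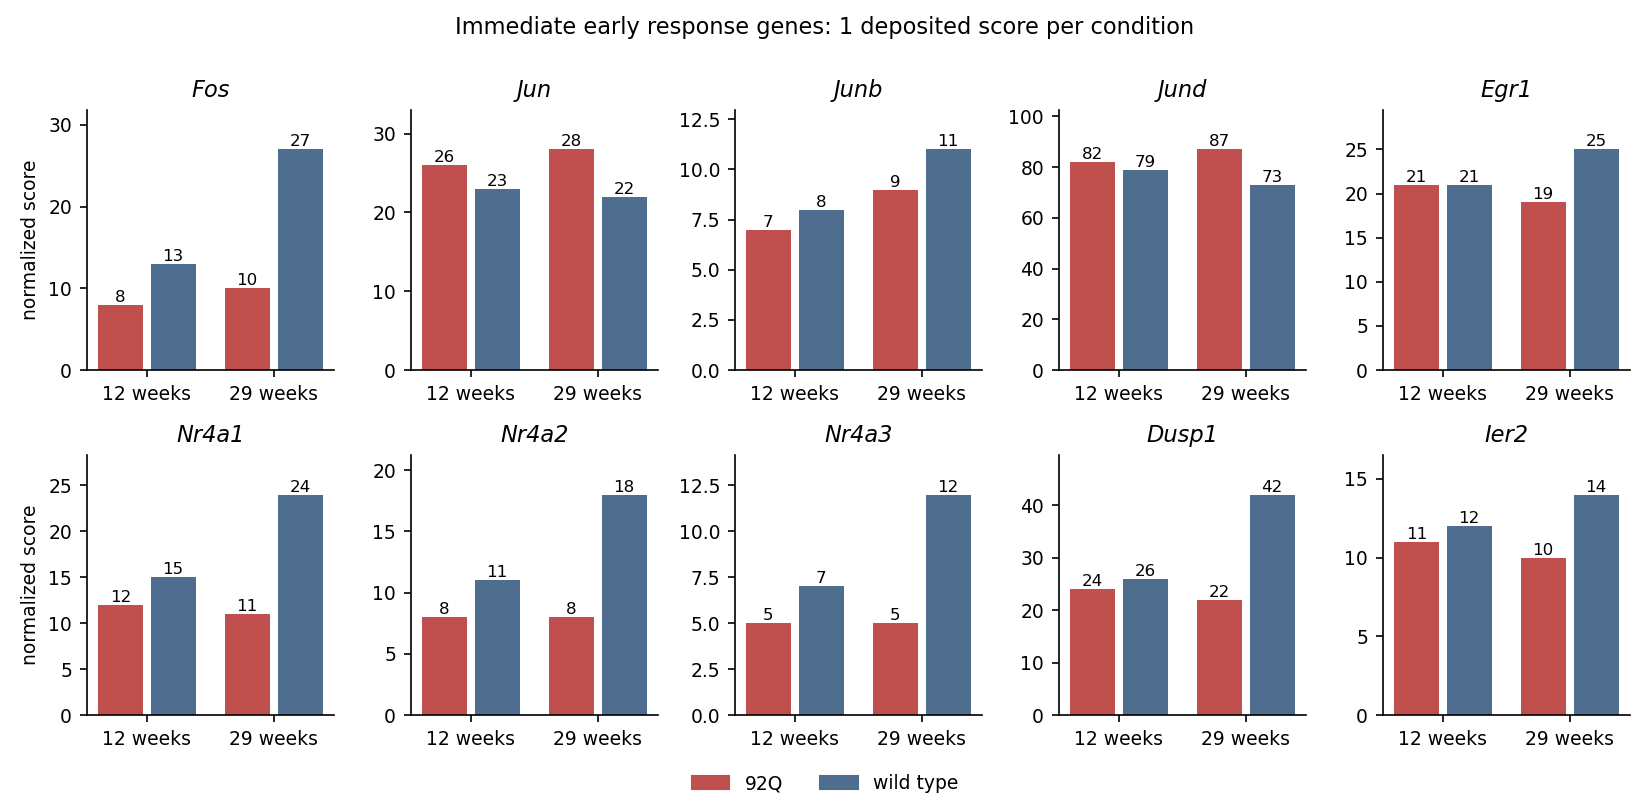
Deposited normalized score (vertical axis, no stated unit, 1 scale per gene) of each immediate early response gene in 92Q and wild type at 12 and 29 weeks, 1 bar per group and no error bars since the table has 1 value per group. Wild type at 29 weeks is the highest bar of 8 genes and the lowest of Jun and Jund.

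The question which group is the outlier was put to each gene in the same way: the score farthest, on the log2 scale, from the median of the other 3. For 9 of the 10 genes this was 29-week wild type, in 8 as the highest score and in Jund as the lowest. Over all 7667 genes 29-week wild type was the farthest group for 20.9%, while 29-week 92Q was it for 31.2%, 12-week wild type for 22.3% and 12-week 92Q for 9.72%. A score was said to stand apart where its gap to the nearest other score was over 50% of the range and rounding could not close it. Wild type at 29 weeks stood apart on the high side in 6 genes, Fos, Egr1, Nr4a1, Nr4a2, Nr4a3 and Dusp1, with gaps between 60.8% and 74.4% of the range, against 1.23% of all genes. It was the highest of the 4 in 8 of the 10 genes, against 7.8% of all genes. Every gene in the table reached 10 in at least 1 group, and Junb and Nr4a3 did so in 29-week wild type alone. Those 2 genes had a place in the table only through that score, so it had to be their highest. Among the other 8 genes 29-week wild type was highest in 6 and stood apart in 5, against 7.34% and 1.21% of the 7629 genes that reached 10 in another group.

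At 29 weeks 5 of the 10 genes, Fos, Nr4a1, Nr4a2, Nr4a3 and Dusp1, were at least 1.5-fold lower in 92Q than in wild type, against 0.73% of the 7666 genes compared. Of the 8 genes whose place did not rest on 29-week wild type, 4 were that much lower. By any amount 8 of the 10 were lower, against 26.1% of all genes, and 2 were higher, against 49.5%. Their median log2 ratio was -0.68, and that of all genes 0.00. None of the 10 was at least 1.5-fold higher, as 0.535% of all genes were. The 5 genes also appear in the authors' deposited table of 99 genes.

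These 5 differed from most of the other lowered genes in the group that set the difference. In all, 56 genes were at least 1.5-fold lower in 92Q at 29 weeks, and for 46 of them the farthest score was that of 29-week 92Q, low against the other 3. For 7 it was that of 29-week wild type, and 5 of these 7 were Fos, the 3 Nr4a genes and Dusp1. Of these, Nr4a3 had a place in the table only through its 29-week wild-type score, so that score had to be its highest. The other 2, named after their values were seen, were Spry4, an inhibitor of receptor tyrosine kinase signalling, and the small noncoding RNA AF357399. Spry4 was 8 in 92Q and 10 in wild type at 12 weeks, and 9 in 92Q and 14 in wild type at 29 weeks. AF357399 was 75 in 92Q and 29 in wild type at 12 weeks, and 43 in 92Q and 122 in wild type at 29 weeks, so its genotypes changed order between the ages. When 29-week 92Q was set against 12-week wild type instead, none of the 10 genes was 1.5-fold lower. Their median ratio was then -0.24, with Fos at -0.35, each Nr4a gene at -0.42 and Dusp1 at -0.23. In that comparison age and genotype cannot be told apart.

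**Figure D2:**
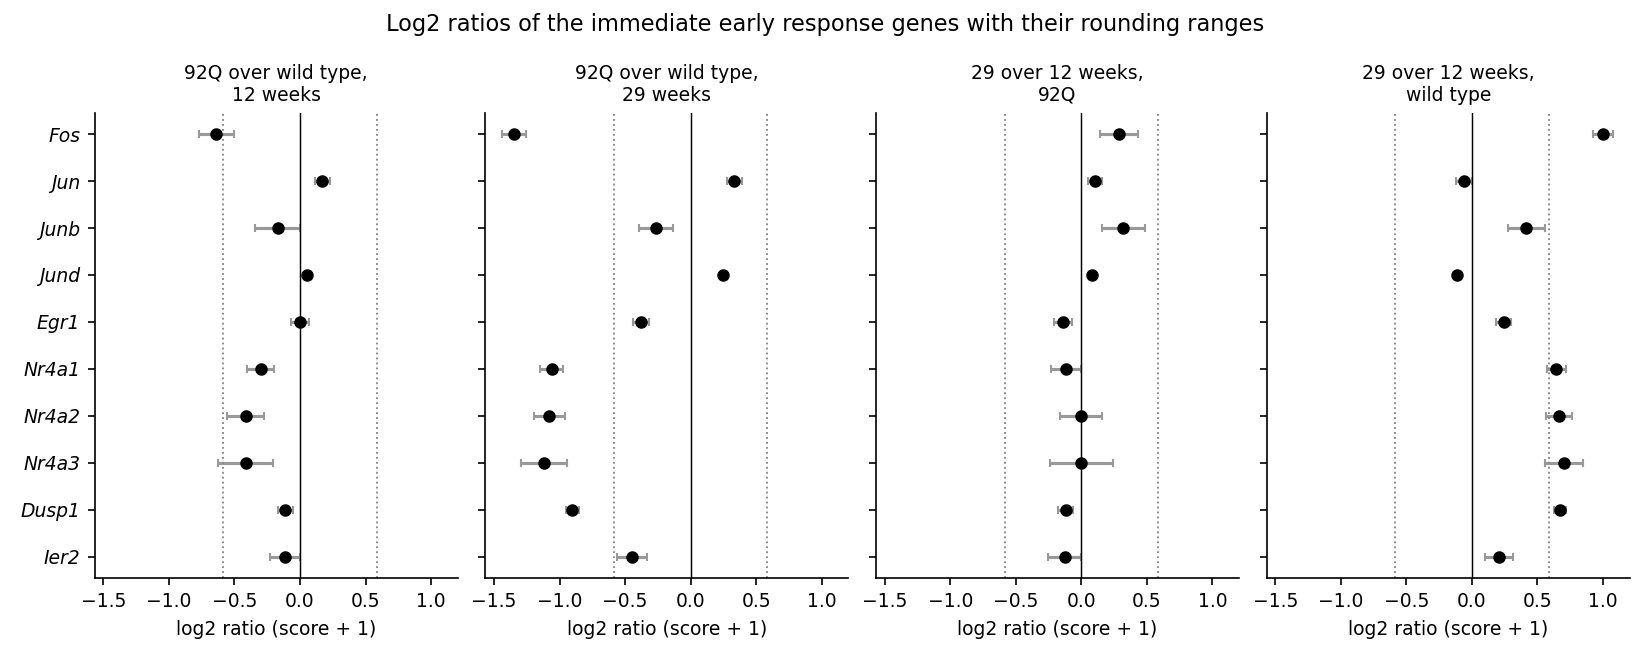
Log2 ratios of score + 1 (horizontal axes) of each gene for 92Q over wild type at 12 and 29 weeks and for 29 over 12 weeks in 92Q and in wild type; grey bars are rounding ranges, not replicate error, and dotted lines mark 1.5-fold. Fos, Nr4a1, Nr4a2, Nr4a3 and Dusp1 lie beyond the dotted lines both for genotype at 29 weeks and for age in wild type, which share the 29-week wild-type score.

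The 12-week groups share no score with the 29-week groups and so show what remains without 29-week wild type. At 12 weeks 7 of the 10 genes were lower in 92Q by any amount, against 36.7% of the 7660 genes compared. For Junb and Ier2 among these 7 the rounding range reached 0. Only Fos was at least 1.5-fold lower, against 0.17% of all genes. Its rounding range reached -0.51, short of 1.5-fold. None of the 10 genes was 1.5-fold higher, as 0.0783% of all genes were. The median of the 10 was -0.14 and that of all genes 0.00. Jun and Jund were higher in 92Q, against 32.1% of all genes, and Egr1 had equal scores. The genotype ratio was lower at 29 than at 12 weeks in 8 of the 10 genes, and higher for Jund (0.20) and Jun (0.16). In the 8 genes the difference of ratios lay between -0.79 for Dusp1 and -0.09 for Junb. The 8 include Junb and Nr4a3, whose place in the table rested on 29-week wild type. The share of all genes with a lower ratio at 29 weeks was not computed, so this count has no background. With 1 value per group these differences were not tested.

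Both 92Q scores lay at least 2 below both wild-type scores in Fos, Nr4a1, Nr4a2, Nr4a3 and Dusp1, so 5 of the 10 genes separated by genotype in this direction, against 2.2% of all genes. Of the 8 genes whose place did not rest on 29-week wild type 4 did so, against 2.19%. For Dusp1 and Nr4a3 the separation was the smallest allowed, 24 in 92Q against 26 in wild type and 5 in 92Q against 7 in wild type. After scaling the columns by their upper quartile or by their median ratio, Fos, Nr4a1 and Nr4a2 were still at least 2 apart and Nr4a3 and Dusp1 were not. After quantile normalization all but Dusp1 of the 5 were. In the other direction Jun and Jund had both 92Q scores above both wild-type scores, against 1.64% of all genes. Junb, Egr1 and Ier2 did not separate by that distance.

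**Figure D3:**
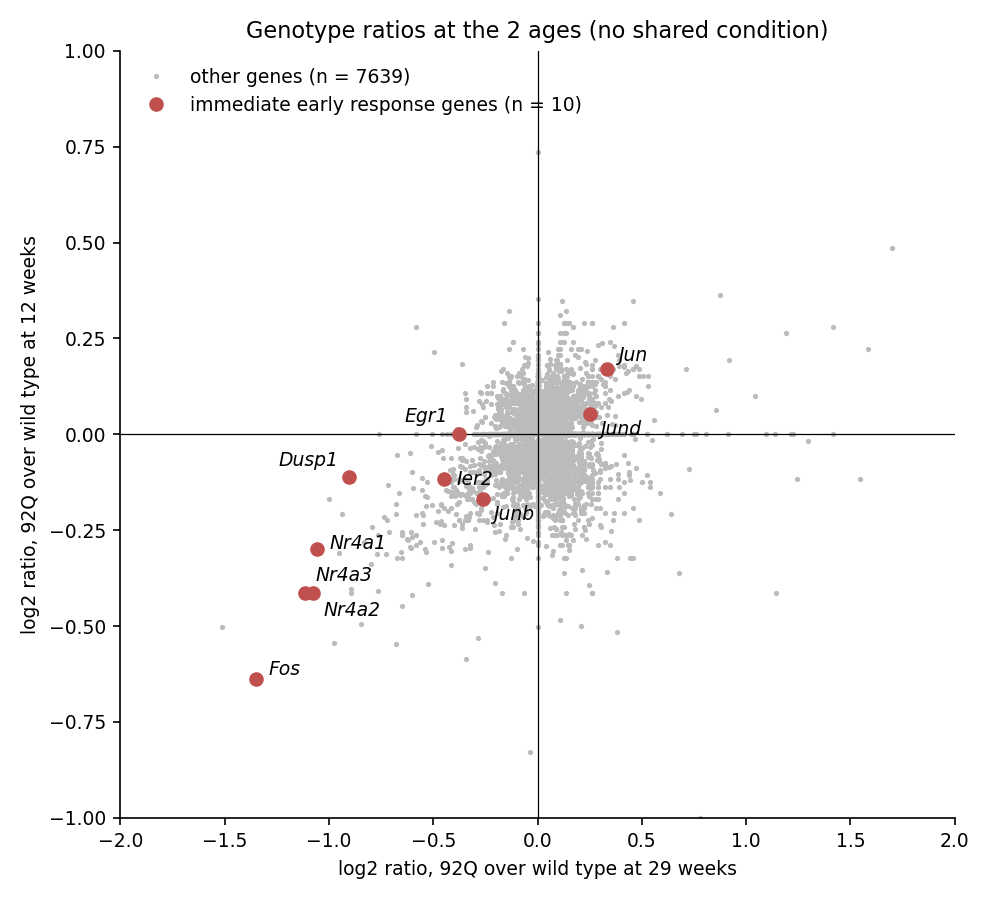
Log2 ratio of 92Q over wild type at 29 weeks (horizontal axis) against that at 12 weeks (vertical axis), 1 point per gene, with the 10 immediate early response genes in red and 7639 other genes in grey; 18 genes lie outside the axes. Fos and the Nr4a genes lie low on both axes, Dusp1 low on the horizontal axis, and Jun and Jund above 0 on both.

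With age the genotypes ran apart. In wild type, 5 of the 10 genes were at least 1.5-fold higher at 29 than at 12 weeks, against 0.222% of 7663 genes, namely Fos (log2 ratio 1), Nr4a3 (0.70), Dusp1 (0.67), Nr4a2 (0.66) and Nr4a1 (0.64). This comparison and the 29-week genotype comparison share the 29-week wild-type score, so 1 high value enters both. Y-linked genes, given below, also differed between the wild-type ages, so age and the sex of the pooled mice cannot be told apart here. Among the 8 genes whose place did not rest on that score 4 were that much higher, and the median was 0.44 over the 8 and 0.53 over the 10, with all genes at 0.00. By any amount 8 of the 10 were higher, against 32.5% of all genes, and Jund (-0.11) and Jun (-0.06) were lower, against 45.9% of all genes. None of the 10 was 1.5-fold lower, as 0.144% of all genes were. In 92Q no gene of the 10 differed by 1.5-fold between the ages, while 0.978% of all genes were that much higher and 0.483% that much lower. There 4 were higher and 4 lower by any amount, against 42.4% and 35.4% of all genes, with a median of 0.00. Fos at 0.29 and Junb at 0.32 were the highest ratios in 92Q, and Nr4a2 and Nr4a3 were at 0.00. The summed score of the 10 genes was 204 in 92Q and 215 in wild type at 12 weeks, and 209 in 92Q and 268 in wild type at 29 weeks.

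Other immediate early genes were more often lower than higher in 92Q at 29 weeks, mostly by small amounts. Of 45 listed, 17 had a score in the table, among them Arc, Homer1, Nfil3, Klf2 and Trib1. At 29 weeks 11 were lower in 92Q, against 26.1% of all genes, and 5 were higher. Their median log2 ratio was -0.09, and 1 was at least 1.5-fold lower. This was Trib1, a pseudokinase, at 7 in 92Q and 9 in wild type at 12 weeks, and 6 in 92Q and 10 in wild type at 29 weeks. Wild type at 29 weeks was the highest group in 6 of the 17, against 7.8% of all genes, among them Klf2, a zinc finger factor, at 7 in both genotypes at 12 weeks, and 9 in 92Q and 11 in wild type at 29 weeks. It stood apart on the high side in 0 of the 17, and the difference from the 10 genes was not tested. Of the 6, Klf2 and Trib1 reached 10 in 29-week wild type alone, so that score had to be their highest. Plk2, Errfi1 and Ppp1r15a, also among the 6, were highest there by a score of 1 only, which rounding can close. Nfil3, a bZIP repressor, was 12 in 92Q and 15 in wild type at 12 weeks, and 10 in 92Q and 13 in wild type at 29 weeks, so it was lower in 92Q at both ages without an outlying wild-type score. Arl4d, a small GTPase, was 7 in 92Q and 9 in wild type at 12 weeks, and 11 in 92Q and 10 in wild type at 29 weeks. Arc, a synaptic protein induced by activity, was 12 in 3 groups and 11 in 29-week wild type, its lowest score.

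Late activity genes, which follow the first wave, were lower in 29-week 92Q but with 29-week 92Q, on the low side, as the farthest group in 6 of 7. Of 15 listed, these 7 had a score, and 6 were lower in 92Q at 29 weeks and 1 higher (median -0.19, none by 1.5-fold). All 7 were lower at 29 than at 12 weeks in 92Q, with a median of -0.15, and in wild type the median was 0.00. Nptx1, a neuronal pentraxin, was 204 in 92Q and 213 in wild type at 12 weeks, and 148 in 92Q and 198 in wild type at 29 weeks. The other named late genes had their lowest score in 29-week 92Q too. Scg2, a secretogranin, was 159 in 92Q and 161 in wild type at 12 weeks, and 139 in 92Q and 159 in wild type at 29 weeks. Nrn1, neuritin, was 92 in 92Q and 97 in wild type at 12 weeks, and 74 in 92Q and 85 in wild type at 29 weeks. Rasgrp1, a Ras activator, was 14 in 92Q and 15 in wild type at 12 weeks, and 13 in 92Q and 16 in wild type at 29 weeks.

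The regulators upstream of these genes had median ratios of 0.00 between the genotypes at 29 weeks. Of 14 upstream transcription factors with a score (16 listed), 4 were lower and 5 higher in 92Q at the later age (median 0.00), and none differed by 1.5-fold. Creb1 was 14 in each of the 4 groups. Srf was 12 in 92Q and 12 in wild type at 12 weeks, and 11 in 92Q and 12 in wild type at 29 weeks. Mkl2, a coactivator of SRF, was 14 in 92Q and 13 in wild type at 12 weeks, and 17 in 92Q and 16 in wild type at 29 weeks, higher with age in both genotypes. Ep300, a histone acetyltransferase that CREB recruits, was 19 in 92Q and 17 in wild type at 12 weeks, and 20 in both genotypes at 29 weeks. Mef2c, a MADS box factor, was 10 in 92Q and 11 in wild type at 12 weeks, and 12 in 92Q and 11 in wild type at 29 weeks. None of these 5 genes had its highest score in 29-week wild type alone. Among the factors Mef2d, another MADS box factor, had an outlying high 29-week wild-type score, at 54 in 92Q and 52 in wild type at 12 weeks, and 56 in 92Q and 62 in wild type at 29 weeks. Of 30 MAP kinase and calcium kinase genes with a score (31 listed), 13 were lower and 12 higher at 29 weeks (median 0.00, none by 1.5-fold). Camkk2, which activates calcium/calmodulin kinase IV, was 67 in 92Q and 68 in wild type at 12 weeks, and 49 in 92Q and 60 in wild type at 29 weeks. Camk4, the kinase it activates, was 113 in 92Q and 108 in wild type at 12 weeks, and 89 in 92Q and 96 in wild type at 29 weeks. Both were lowest in 29-week 92Q. Camk2a was 41 in 92Q and 48 in wild type at 12 weeks, and 41 in 92Q and 52 in wild type at 29 weeks, lower in 92Q at both ages. Hras was 21 in 92Q and 24 in wild type at 12 weeks, and 21 in 92Q and 20 in wild type at 29 weeks.

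Partners and antagonists of the proteins were mixed. Of 13 other MAP kinase phosphatases and related inhibitors with a score (16 listed), 8 were lower and 5 higher in 92Q at the later age (median -0.09). Those at least 1.5-fold lower were Dusp5 and Spry4, against 0.73% of all genes. Wild type at 29 weeks stood apart on the high side in 3 of the 13, namely Spry4, Spred1 and Dusp14, against 1.23% of all genes. A 29-week wild-type score standing apart was thus not particular to the 10 genes. Dusp5, a nuclear ERK phosphatase, was 76 in 92Q and 88 in wild type at 12 weeks, and 46 in 92Q and 89 in wild type at 29 weeks. It had a ratio like that of Dusp1 (-0.94) but the opposite outlier, since its wild-type scores hardly differed and its 29-week 92Q score was the low one. Dusp10, a phosphatase of p38 and JNK, was 22 in 92Q and 23 in wild type at 12 weeks, and 18 in 92Q and 22 in wild type at 29 weeks. Dusp6, a cytoplasmic ERK phosphatase, was 10 in 92Q and 11 in wild type at 12 weeks, and 10 in 92Q and 12 in wild type at 29 weeks. Nab2, a corepressor that binds EGR1, was 28 in 92Q and 29 in wild type at 12 weeks, and 18 in 92Q and 28 in wild type at 29 weeks. It was the 1 gene at least 1.5-fold lower (-0.61) among 7 NR4A partners and EGR corepressors with a score (9 listed), of which 3 were lower and 2 higher with a median of 0.00, and its outlier was 29-week 92Q too. The receptor partner Rxra was 8 in both genotypes at 12 weeks and 10 in both at 29 weeks. Rxrb was 27 in both genotypes at 12 weeks, and 26 in 92Q and 24 in wild type at 29 weeks. Both lacked the high 29-week wild-type score of the Nr4a genes. Dusp5, Spry4 and Nab2 are in the authors' deposited table of 99 genes. Of 9 AP-1 partners with a score (20 listed), 2 were lower and 3 higher in 92Q at the later age (median 0.00), and none differed by 1.5-fold. Atf4, the stress-response factor, was 171 in 92Q and 181 in wild type at 12 weeks, and 157 in 92Q and 170 in wild type at 29 weeks. Nfe2l2, the antioxidant-response factor, was 15 in both genotypes at 12 weeks, and 20 in 92Q and 18 in wild type at 29 weeks. For both the farthest score was that of 29-week 92Q, low for Atf4 and high for Nfe2l2. It did not stand apart in Nfe2l2, which was higher at 29 weeks in both genotypes. Ddit3, which encodes the stress-induced factor CHOP, was 26 in 92Q and 30 in wild type at 12 weeks, and 25 in both genotypes at 29 weeks. Jdp2, a repressor that pairs with JUN, was 17 in 92Q and 18 in wild type at 12 weeks, and 19 in both genotypes at 29 weeks.

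**Figure D4:**
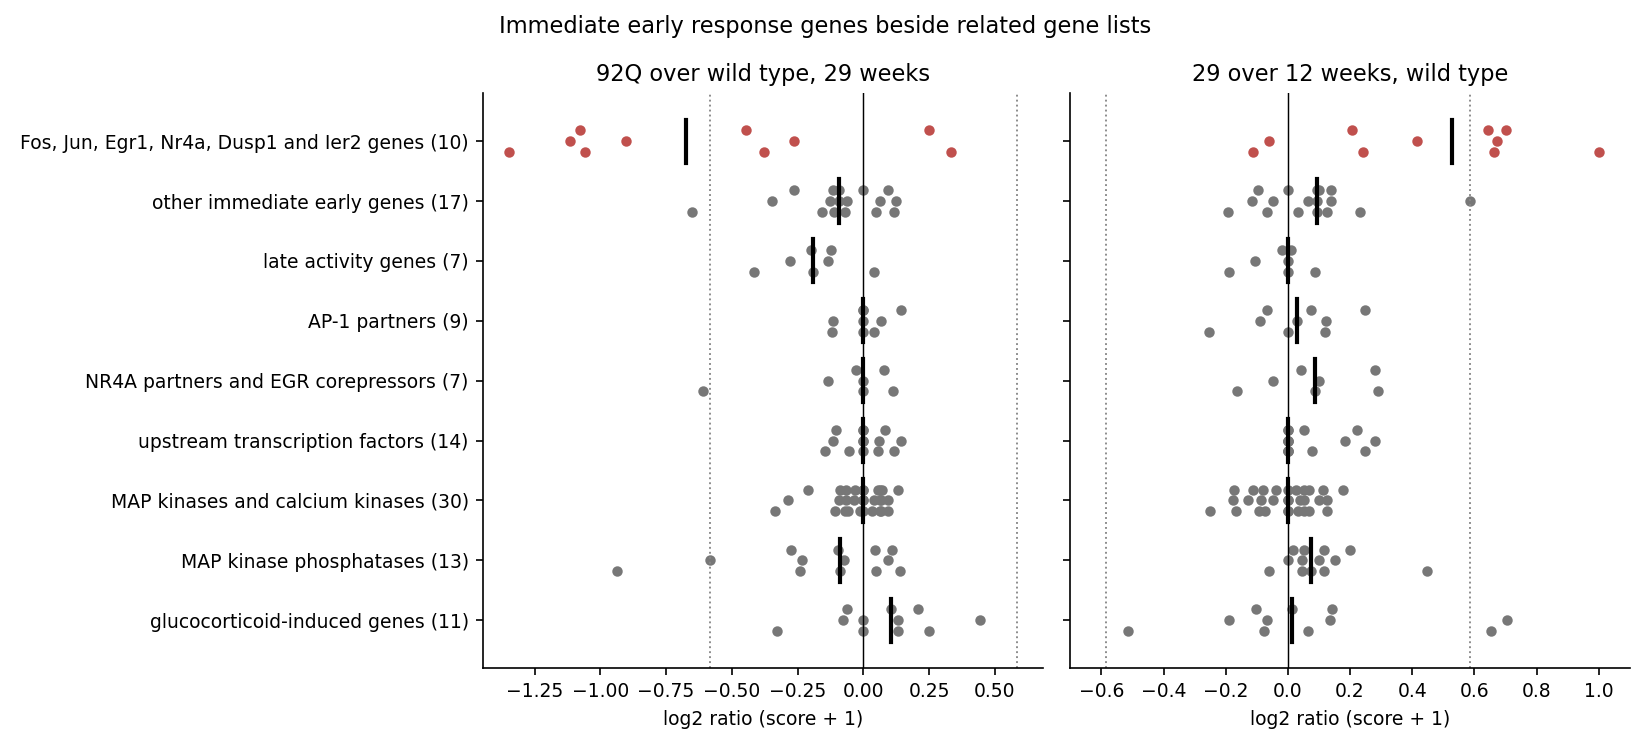
Log2 ratios of score + 1 for 92Q over wild type at 29 weeks and for 29 over 12 weeks in wild type (horizontal axes), 1 point per gene, for the 10 immediate early response genes in red and 8 related lists in grey; black bars are list medians, dotted lines mark 1.5-fold and brackets give the genes with a score. The red points spread farther from 0 than most grey ones in both panels, with medians of -0.68 and 0.53.

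The profile over the 4 groups was compared with that of every gene with a mean score of 10 or more (7209 genes), as the Euclidean distance between mean-centred log2 scores, which is a description over 4 values. The 5 genes nearest to Fos were Nr4a2 (distance 0.40), Nr4a1 (0.49), Dusp1 (0.61), Spry4 (0.69) and the clock gene Per1 (0.79). Nearest to Nr4a1 were Nr4a2 (0.11), Dusp1 (0.17), Spry4 (0.34), Clstn2, a calsyntenin (0.46), and Fos (0.49). Nearest to Dusp1 were Nr4a1 (0.17), Nr4a2 (0.25), Spry4 (0.26), Clstn2 (0.39) and Ier2 (0.40). Of the genes compared, 2 lay within 0.5 of Fos, 5 of Nr4a1 and 23 of Dusp1. Nr4a3 and Junb had mean scores under 10 and so were not among them. Nr4a3 lay at 0.37 from Fos, 0.13 from Nr4a1 and 0.27 from Dusp1, and Junb at 0.88, 0.58 and 0.46 from the same genes. The nearly flat profile of Jun was common, with 6931 genes within 0.5, and its nearest genes were Epm2a, Mtmr2, Strada, Znf512b and Lhfpl2.

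Genes that respond to hormones or the hour of day were read beside these values. Of 11 glucocorticoid-induced genes with a score (18 listed), 3 were lower and 6 higher in 92Q at 29 weeks (median 0.10, none lower by 1.5-fold), and 10 were lower at 12 weeks (median -0.12). Sgk1, a kinase induced by glucocorticoids, was 28 in 92Q and 40 in wild type at 12 weeks, and 51 in 92Q and 44 in wild type at 29 weeks, with 12-week 92Q as its low outlier. Zbtb16, a zinc finger factor, was 7 in 92Q and 6 in wild type at 12 weeks, and 10 in both genotypes at 29 weeks. Cdkn1a, a cell cycle inhibitor, was 25 in 92Q and 29 in wild type at 12 weeks, and 22 in 92Q and 20 in wild type at 29 weeks. None of these 3 was highest in 29-week wild type alone. Over all 11 genes 29-week wild type was highest in 3, Per1, Tsc22d3 and Errfi1, against 7.8% of all genes. It stood apart on the high side in 0 of the 11. Per1 belongs to this list and to the clock genes, where its scores are given. Of 16 clock genes with a score (19 listed), 14 were lower and 1 higher in 92Q at the later age (median -0.13). Over all genes 26.1% were lower and 49.5% higher. Their median of 29 over 12 weeks was 0.21 in 92Q and 0.31 in wild type, with 12 of 16 higher in 92Q and 13 of 16 in wild type. Wild type at 29 weeks was the highest group in 11 of the 16, against 7.8% of all genes, so this trait was not particular to the 10 genes. It stood apart on the high side in 1 of the 16, against 1.23% of all genes. Per1, which also has CREB sites, was 23 in 92Q and 26 in wild type at 12 weeks, and 34 in 92Q and 43 in wild type at 29 weeks. Per2 was 10 in both genotypes at 12 weeks, and 16 in 92Q and 22 in wild type at 29 weeks. Arntl, which encodes the clock activator BMAL1, was 16 in 92Q and 17 in wild type at 12 weeks, and 11 in 92Q and 13 in wild type at 29 weeks. The Per genes were thus higher and Arntl lower at the later age in both genotypes, whereas Fos, the Nr4a genes and Dusp1 hardly differed with age in 92Q or, for Fos, differed less than in wild type. The part of collection time in the results was not tested.

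Several cell type markers moved between the same groups, and their part in the results was not tested. Purkinje cell markers (14 of 15 with a score) summed to 6725 in 92Q and 8446 in wild type at 12 weeks, and 4734 in 92Q and 7213 in wild type at 29 weeks, so they were lower in 92Q at both ages but not highest in 29-week wild type. Granule neuron markers (15 of 15) summed to 3672 in 92Q and 3573 in wild type at 12 weeks, and 2986 in 92Q and 3245 in wild type at 29 weeks. Interneuron and unipolar brush cell markers (10 of 14) summed to 569 in 92Q and 597 in wild type at 12 weeks, and 530 in 92Q and 620 in wild type at 29 weeks, where the wild-type sum was the highest of the 4. Wild type at 29 weeks was highest in 3 of these 10 markers and stood apart in 0. Microglia markers (11 of 15) summed to 163 in 92Q and 162 in wild type at 12 weeks, and 409 in 92Q and 189 in wild type at 29 weeks. Astrocyte and Bergmann glia markers (11 of 12) summed to 2967 in 92Q and 3035 in wild type at 12 weeks, and 3572 in 92Q and 2934 in wild type at 29 weeks. Oligodendrocyte markers (10 of 10) summed to 3810 in 92Q and 4062 in wild type at 12 weeks, and 4356 in 92Q and 4076 in wild type at 29 weeks. The glial sums were highest in 29-week 92Q, while Fos, the Nr4a genes and Dusp1 were low in 92Q at both ages. The astrocyte sum was carried by Apoe, at 1552 in 92Q and 1062 in wild type at 29 weeks, and Gfap, at 235 in 92Q and 95 in wild type. Of the 11 astrocyte markers 7 were higher and 4 lower in 92Q at that age (median 0.09), while all 11 microglia markers were higher. However, 4 of these 11, Cx3cr1, Trem2, Cd68 and Lyz2, reached 10 in 29-week 92Q alone. That score had to be their highest.

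Endothelial and mural markers (4 of 13) summed to 75 in 92Q and 74 in wild type at 12 weeks, and 75 in 92Q and 75 in wild type at 29 weeks, and so hardly differed. Choroid plexus markers (7 of 10) summed to 65 in 92Q and 456 in wild type at 12 weeks, and 1711 in 92Q and 579 in wild type at 29 weeks, with Kl and Sostdc1 listed at 0 in 12-week 92Q. Meningeal markers (4 of 9) summed to 1303 in 92Q and 1603 in wild type at 12 weeks, and 1586 in 92Q and 1402 in wild type at 29 weeks. The choroid plexus sums were lowest in 12-week 92Q and highest in 29-week 92Q, an order that was not that of Fos. Of the 7 choroid plexus markers, 4 reached 10 in 29-week 92Q alone, so that score had to be their highest. Blood markers (3 of 7) summed to 133 in 92Q and 132 in wild type at 12 weeks, and 179 in 92Q and 126 in wild type at 29 weeks. Markers of other brain regions (3 of 11) summed to 156 in 92Q and 186 in wild type at 12 weeks, and 149 in 92Q and 178 in wild type at 29 weeks. Among them Th, the tyrosine hydroxylase gene, was 7 in 92Q and 8 in wild type at 12 weeks, and 5 in 92Q and 11 in wild type at 29 weeks. Th reached 10 in 29-week wild type alone, so that score had to be its highest. The other markers did not share this order. Tcf7l2 was 11 in 92Q and 16 in wild type at 12 weeks, and 19 in both genotypes at 29 weeks. Ppp1r1b was 138 in 92Q and 162 in wild type at 12 weeks, and 125 in 92Q and 148 in wild type at 29 weeks. Sex-linked genes also differed along with genotype, and the Y-linked ones with age in wild type. Xist, expressed from the inactive X chromosome, was 30 in 92Q and 66 in wild type at 12 weeks, and 25 in 92Q and 63 in wild type at 29 weeks. The Y-linked gene Eif2s3y was 12 in 92Q at 12 weeks, where wild type is listed at 0, and 15 in 92Q and 6 in wild type at 29 weeks. Ddx3y, also Y-linked, was 9 in 92Q at 12 weeks, with wild type listed at 0, and 11 in 92Q and 5 in wild type at 29 weeks. Xist was thus higher in wild type at both ages, like the 5 genes that separated by genotype, and genotype and the sex of the pooled mice cannot be told apart here. Both Y-linked genes were higher at 29 than at 12 weeks in wild type, so age and the sex of the pooled wild-type mice cannot be told apart either.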

How the data were processed

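Total RNA of mouse cerebellum was sequenced in 12 libraries, 3 for each of 4 groups. The authors deposited 1 whole-number normalized score per gene and group, having combined the libraries, in a table of 7684 genes and a short table of 99. Bowtie 0.12.7, SAMtools 0.1.12a, Cuffdiff 1.3.0 and the mouse build mm10 are named, per the submitters' processing notes, without role or order. The annotation, normalization and strand setting are not stated by these notes or the labels. Entries with a number in place of a gene name (17) were left out.

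Samples were grouped by the genotype and age in their labels. Log2 ratios of score + 1 were computed for genes with a score of 5 or more in one or both groups, with Python 3.11.15, numpy 2.4.6, pandas 2.3.3 and matplotlib 3.10.9, and the steps were tested on simulated data. A pseudocount understates ratios of low genes. Comparisons were 92Q over wild type at each age and 29 over 12 weeks in each genotype. No p-value was computed, since a score has no replicates. Alternatives were other pseudocounts, minimums, thresholds and scalings. All 10 genes are named, and from 8 related lists up to 4 genes with the largest ratio in any comparison, besides the 5 nearest profiles of Fos, Nr4a1, Dusp1 and Jun; other named genes were picked after their values were seen. One gene that this rule selects is not reported here. The genes, lists and thresholds were chosen with earlier results of these data known. Coordinates and promoters are from RefSeq (GRCm38.p6, the assembly of mm10), and promoter bases inside annotated exons were trimmed before printing.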

Additional observations from a re-analysis of the deposited data

Results flagged for a closer look

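In 3 genes the 29-week score lay on one side of the 12-week score in 92Q and on the other side in wild type, by more than rounding allows. How often this occurs among all genes was not computed, so this count has no background and cannot be called unusual. Dusp1 had a log2 ratio of 29 over 12 weeks of -0.12 in 92Q and 0.67 in wild type. Egr1 had -0.14 in 92Q and 0.24 in wild type. Jund ran the other way, with 0.084 in 92Q and -0.112 in wild type. With 1 value per group the difference was not tested.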

How the results depend on the processing

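No paired analysis was possible because the table holds 1 value per group, and leaving out single libraries was not run for the same reason. Most values kept direction and side of the threshold under other pseudocounts, scalings and minimums. The count of genes in which 29-week wild type stood apart on the high side was 6 or 7 of the 10 under other pseudocounts and scalings. Without Junb and Nr4a3, whose place rested on 29-week wild type, it was 5 of 8. The exceptions follow. With a pseudocount of 5, the median of the 10 genes was -0.55 for genotype at 29 weeks and 0.40 for age in wild type, 2 genes were 1.5-fold higher with age in wild type and 0 were lower in 92Q at 12 weeks. With both scores at 10 or more, which at 29 weeks drops Nr4a2, Nr4a3 and Junb, 3 genes were lower at 29 weeks (median -0.45), 0 at 12 weeks, and the median difference of ratios was -0.36. With 12-week wild type as the control, chosen after seeing the data, 0 genes were lower, the median was -0.24 and Junb reversed to 0.15. At a lower fold threshold than 1.5, 1 gene was higher in 92Q at 29 weeks, 3 were lower at 12 weeks and 1 was higher with age in 92Q. At 2-fold, 0 were lower at 12 weeks and 1 was higher with age in wild type. After quantile normalization 0 were lower at 12 weeks and 1, Nr4a3, was lower with age in 92Q, while the genotype ratio of Nr4a3 at 29 weeks moved to -1.89. After upper quartile or median ratio scaling, 3 genes had both 92Q scores at least 2 below both wild-type scores, and 4 after quantile normalization. Low scores limit what can be read: at scores of 5 to 12, rounding alone widens the Nr4a3 ratio at 29 weeks to between -1.30 and -0.94.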
